A study of Mus musculus with 45 samples.

Results

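The diets were compared for 8 genes of the machinery that senses sterols and governs the uptake and transport of cholesterol, namely Srebf2, Scap, Insig1, Insig2, Mylip, Stard4, Npc1 and Scarb1. They were chosen by name, and all 8 were found among the 22080 genes of the expression table. RNA came from the liver, kidney and brain of male C57BL/6 mice, 7 weeks old at the start, 8 mice per diet, sacrificed on day 43. Control mice received the AIN-93 diet, HCD mice the same diet with 0.5% cholesterol, and the 3 other groups the HCD with an addition, so that cholesterol was shared by 4 of the 5 groups. HCD+Gl-1 contained 1.0% of an extract of the mushroom Ganoderma lucidum grown on its usual substrate, HCD+Gl-2 contained 1.0% of an extract of the mushroom grown with acetylsalicylic acid, and HCD+Sim contained simvastatin, an inhibitor of the enzyme that commits carbon to sterol synthesis, at 0.03 g per 100 g. Each of the 15 combinations of tissue and diet had 3 arrays (Affymetrix Mouse Gene ST v1.0), 45 in all. The RNA of 4 mice made up pool A, the remaining 4 made up pool B, and pool C combined A with B. A group of 3 arrays therefore held 2 separate pools, and p-values measure the spread between these arrays.

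In the sterol sensing pathway, the membrane protein Scap escorts the transcription factor precursor encoded by Srebf2 from the endoplasmic reticulum to the Golgi, where the factor is released by proteolysis and goes on to switch on genes of sterol synthesis and lipoprotein uptake. The Insig proteins hold Scap in the endoplasmic reticulum when sterols are abundant. Insig1 is itself switched on by the factor that it restrains, and Insig2 has a liver transcript with its own upstream first exon. Mylip, also called Idol, is a ubiquitin ligase that is switched on by the oxysterol receptor LXR and marks the LDL receptor for degradation. Stard4 is a soluble sterol carrier, and Npc1 moves lipoprotein cholesterol out of the lysosome. Scarb1 is a receptor for high-density lipoprotein (HDL), from which it takes up cholesterol.

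Values are log2 intensities, and a difference of 1 is a doubling. Levels were compared only within a gene, since each gene was read by its own probe set. Differences were tested with limma on all 45 arrays, with the Benjamini-Hochberg adjustment over all 22080 genes. A gene is said to have risen or fallen where the adjusted p was at most 0.05, and to be DE where the absolute log2 difference was also over 0.7. Errors after ± are SD over the 3 arrays of a group. A permutation of 3 arrays against 3 cannot give an exact two-sided p under 0.1. The arrays carried the markers of their labelled tissue: the mean of 8 liver markers lay between 13.33 and 13.43 on the liver arrays and did not exceed 8.03 on the others. Markers of other tissues varied in liver. The mean of 10 pancreas acinar markers lay between 6.19 and 7.91 on the HCD+Sim arrays and between 5.96 and 6.22 on the other liver arrays, and the mean of 10 skeletal muscle markers between 6.49 and 7.84 on HCD+Sim and between 6.24 and 7.05 on the others.

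The bases before the annotated starts of Insig2, Insig1 and Mylip are printed because these are the genes with the widest differences between diets. They were taken from RefSeq on GRCm38.p6. The search covered 8 windows of 300 bases, from 250 before to 50 after a start. These belonged to 5 of the 8 genes, namely Srebf2, Scap, Insig1, Insig2 and Mylip. No windows of Stard4, Npc1 or Scarb1 were searched. The 3 motifs searched on both strands were TCACNCCAC, a form of the sterol regulatory element, CCAAT, the site bound by NF-Y, and the E-box CACGTG. None of the 8 windows searched held TCACNCCAC, which occurred in 1.24% of all 32851 windows. CCAAT was found in 4 of the 8 windows and in 37.4% of all, and CACGTG in 3 of the 8 and in 7.15% of all. The Scap windows with CACGTG overlap and hold the same site, so they are not separate matches. It lies at 29 from the upstream Scap start and at -40 from the downstream Scap start. Insig2 has 3 annotated starts on the minus strand of chromosome 1. The most upstream of them had 3 matches to CCAAT, at -136, -46 and -29 counted from the start, and the other Insig2 windows had none. Insig1, on the plus strand of chromosome 5, had CCAAT at -216 and CACGTG at -101. Mylip, on the plus strand of chromosome 13, had 3 matches to CCAAT at -190, -108 and -67. Capitals mark these matches, and ATTGG is CCAAT read on the other strand. A match is a description of letters and was not tested for binding. The 250 bases before each start were, 5′ to 3′:
Insig2, upstream start, chr1:121332590-121332839: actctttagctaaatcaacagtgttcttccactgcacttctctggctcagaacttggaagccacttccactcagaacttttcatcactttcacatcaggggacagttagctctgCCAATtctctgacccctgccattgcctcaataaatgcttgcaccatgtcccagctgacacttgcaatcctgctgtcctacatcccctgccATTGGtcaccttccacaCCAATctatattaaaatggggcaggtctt
Insig2, middle start, chr1:121328025-121328274: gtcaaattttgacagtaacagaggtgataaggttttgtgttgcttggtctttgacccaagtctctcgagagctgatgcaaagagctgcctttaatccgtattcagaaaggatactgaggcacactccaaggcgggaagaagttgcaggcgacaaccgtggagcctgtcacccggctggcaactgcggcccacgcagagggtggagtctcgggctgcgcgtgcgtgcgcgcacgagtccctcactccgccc
Insig2, downstream start, chr1:121327679-121327928: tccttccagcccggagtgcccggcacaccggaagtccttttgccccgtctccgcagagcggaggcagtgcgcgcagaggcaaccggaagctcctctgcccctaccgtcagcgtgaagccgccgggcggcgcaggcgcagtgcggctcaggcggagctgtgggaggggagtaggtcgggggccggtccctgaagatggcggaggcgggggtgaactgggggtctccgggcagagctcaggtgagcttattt
Insig1, chr5:28071162-28071411: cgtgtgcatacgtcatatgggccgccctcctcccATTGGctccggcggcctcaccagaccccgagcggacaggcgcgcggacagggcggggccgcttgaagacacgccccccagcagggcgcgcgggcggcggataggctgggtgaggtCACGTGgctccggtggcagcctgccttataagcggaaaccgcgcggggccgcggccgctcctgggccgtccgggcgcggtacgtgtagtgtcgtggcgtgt
Mylip, chr13:45389492-45389741: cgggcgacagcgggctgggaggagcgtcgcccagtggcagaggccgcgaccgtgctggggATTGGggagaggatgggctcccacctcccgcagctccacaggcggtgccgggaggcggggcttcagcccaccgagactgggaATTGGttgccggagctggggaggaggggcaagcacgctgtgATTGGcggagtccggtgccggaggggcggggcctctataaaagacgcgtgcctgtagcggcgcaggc

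Insig2 showed the widest differences between diets of the 8 genes, and they lay in liver with the Gl-2 extract. Its level on the HCD+Gl-2 liver arrays was 10.08, 9.92 and 10.13 for pools A, B and C. The Control arrays stood at 10.83, 10.96 and 10.79, and the HCD arrays at 10.70, 10.41 and 10.83. Every HCD+Gl-2 array lay below every Control and HCD array. Insig2 fell by 0.81 in HCD+Gl-2 against Control (standard error 0.13, 95% interval from -1.08 to -0.54, adjusted p = 0.000119 by limma), a 1.76-fold difference, and it was the one gene of the 8 that was DE in any comparison of diets within a tissue. Over all genes, 2.86% rose or fell in that comparison and 0.584% were DE. The fall passed the test under each alternative tried, with differences between -0.86 and -0.75 when single arrays were left out. A whole liver sample does not tell fewer cells of a type from less RNA per cell. None of the 8 liver markers passed in this comparison (median log2 difference 0.01), while 3 of 10 skeletal muscle markers fell, with a median of -0.36, and 1 of 6 adipocyte markers, with a median of -0.16, and the part of these in the Insig2 result was not tested.

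Against the HCD alone, Insig2 fell by 0.60 with Gl-2 (standard error 0.13, 95% interval from -0.87 to -0.33, adjusted p = 0.00921), in a comparison in which 1.7% of all genes rose or fell. This call was less firm. It was lost without HCD array A (-0.57, adjusted p = 0.053) or HCD array C (-0.51, adjusted p = 0.082), and with pools A and B only (-0.55, adjusted p = 0.0542). It was also lost when the spread was taken from the 15 liver arrays (adjusted p = 0.256) or the compared groups (adjusted p = 0.174). After quantile normalization within liver it was lost too (-0.58, adjusted p = 0.213). Between the extracts, Insig2 was 0.59 lower with Gl-2 than with Gl-1 (standard error 0.13, adjusted p = 0.0106), where 3.94% of all genes rose or fell. The HCD+Gl-1 arrays stood at 10.71, 10.07 and 11.12, the widest spread of any gene and group described here. Pool B of HCD+Gl-1 overlapped the HCD+Gl-2 arrays, and pool C, a mix of A and B, lay above both of its parts. Pool C lay outside the range of A and B for 73.2% of all genes in this group. Without HCD+Gl-1 array C the difference was -0.34 (adjusted p = 0.226), without array A -0.55 (adjusted p = 0.0552), and without HCD+Gl-2 array B -0.53 (adjusted p = 0.0508). With pools A and B only it was -0.39 (adjusted p = 0.263), and after quantile normalization within liver -0.55 (adjusted p = 0.215). On the liver arrays alone the adjusted p was 0.246. The comparisons with Control, HCD and HCD+Gl-1 share the HCD+Gl-2 arrays and are not independent of each other.

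Simvastatin left Insig2 between these levels, at 10.47, 10.58 and 10.41. These arrays lay below all Control arrays and above all HCD+Gl-2 arrays, and overlapped the HCD range. The difference from Control was -0.37 (95% interval from -0.64 to -0.10, adjusted p = 0.192), in a comparison in which 1.54% of all genes rose or fell. HCD+Gl-2 differed from HCD+Sim by -0.44 (95% interval from -0.71 to -0.17, adjusted p = 0.0948), where 1.31% of all genes rose or fell. In this comparison 9 of 10 pancreas acinar markers, 5 of 10 muscle markers and 1 of 6 adipocyte markers were lower with HCD+Gl-2. Against Control, 9 of 10 pancreas acinar markers rose with HCD+Sim. The part of these markers in the Insig2 values was not tested. In the order of group means in liver, Control was highest, followed by HCD, HCD+Gl-1, HCD+Sim and HCD+Gl-2, and HCD+Sim and HCD+Gl-2 were the neighbours in this order whose arrays did not overlap.

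**Figure D1:**
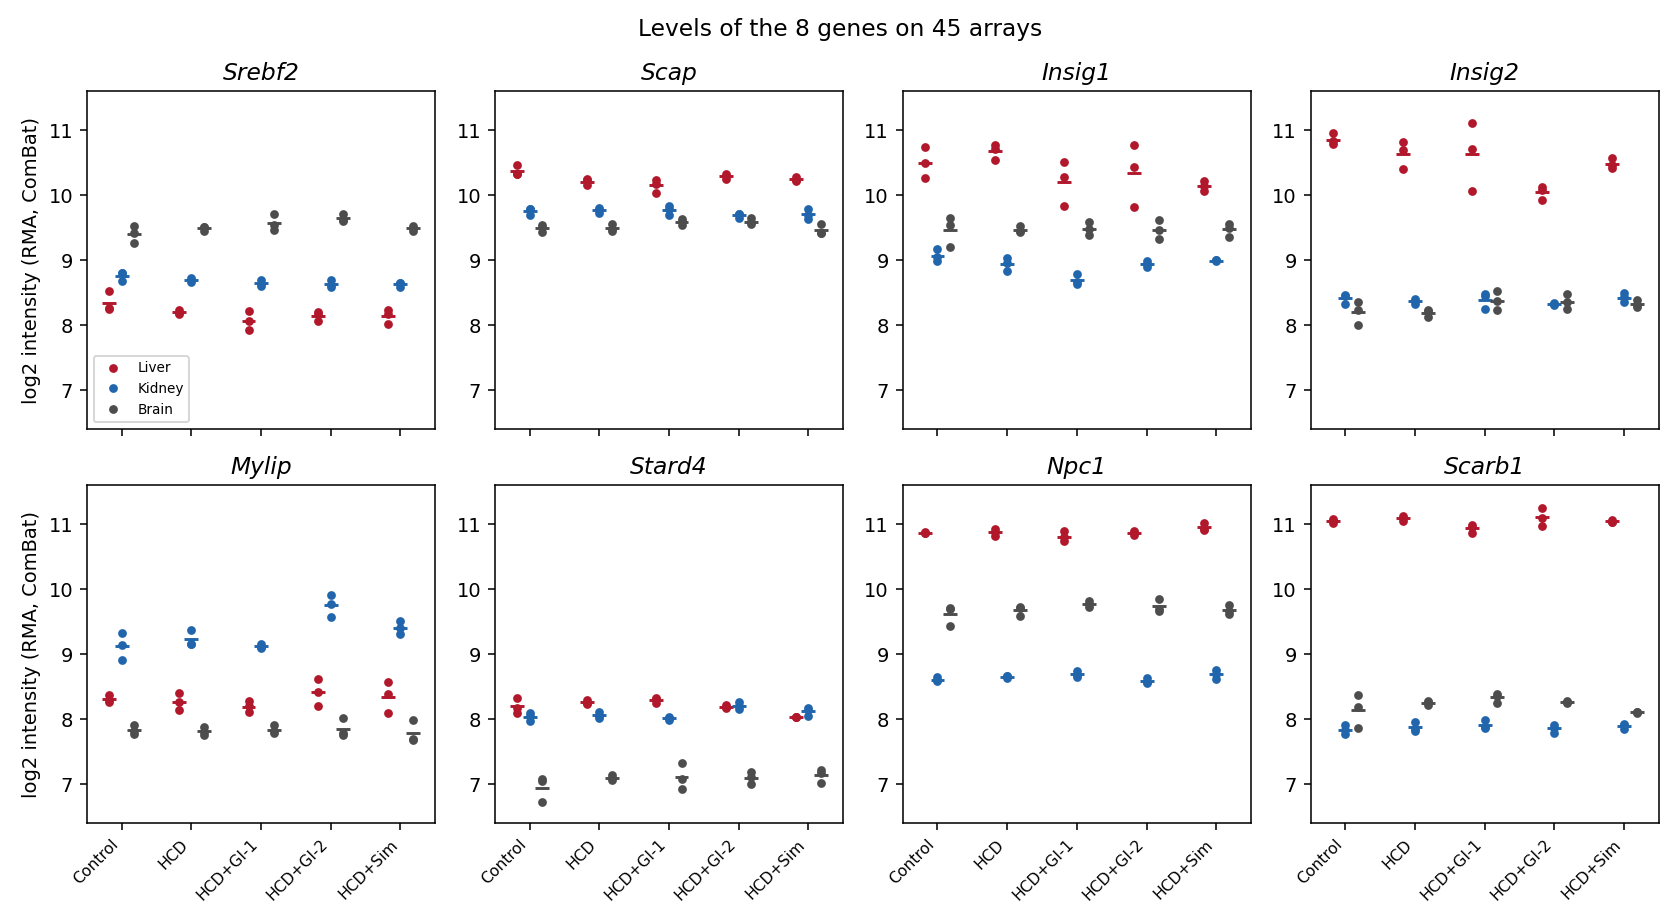
Level of each of the 8 genes as log2 intensity (vertical axis) on every array by diet group (horizontal axis), with liver in red, kidney in blue and brain in grey. Points are single arrays and short bars the means of 3 arrays. The liver Insig2 arrays of HCD+Gl-2 lie between 9.92 and 10.13, below all Control arrays, and the kidney Mylip arrays of HCD+Gl-2 lie between 9.57 and 9.92, above all other kidney arrays.

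The fall of Insig2 with Gl-2 was not seen in the other tissues. In kidney the 15 arrays of the 5 groups lay between 8.25 and 8.49, and HCD+Gl-2 differed from HCD by -0.04 (95% interval from -0.31 to 0.23). In brain the 15 arrays lay between 8.01 and 8.52, and the same difference was 0.16 (95% interval from -0.11 to 0.43). The difference between tissues was tested directly. The change with Gl-2 was 0.76 lower in liver than in brain (standard error 0.19, adjusted p = 0.0472), in a contrast in which 0.598% of all genes passed, and it was 0.56 lower in liver than in kidney (standard error 0.19, adjusted p = 0.24), where 0.625% of all genes passed. The contrast with brain lay close to the threshold, and with single arrays left out it passed only without liver HCD array B (-0.88, adjusted p = 0.025). Each of the 11 other arrays of these 4 groups, when left out, gave a difference between -0.82 and -0.67 that missed it, with adjusted p up to 0.142.

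Mylip, the ligase that marks the LDL receptor, moved in kidney. Its level in kidney was 9.77, 9.57 and 9.92 with HCD+Gl-2. The HCD arrays stood at 9.16, 9.17 and 9.37, and the Control arrays at 9.14, 8.92 and 9.33. HCD+Gl-1 stood at 9.12, 9.09 and 9.16, and HCD+Sim at 9.40, 9.32 and 9.51. The 3 HCD+Gl-2 arrays were the highest of the 15 kidney arrays and overlapped no other group. Mylip rose by 0.52 in HCD+Gl-2 against HCD (standard error 0.11, 95% interval from 0.29 to 0.74, adjusted p = 0.00665), a 1.43-fold difference, and 0.996% of all genes rose or fell in that comparison. The call was lost without HCD array A (0.48, adjusted p = 0.0598), without HCD array B (0.48, adjusted p = 0.0625), without HCD+Gl-2 array C (0.44, adjusted p = 0.114) and when only the compared groups were fitted (adjusted p = 0.0517). Of the kidney markers, 1 of 8 rose in the same comparison, with a median over the 8 of 0.11, and its part in the result was not tested. Abca1, a cholesterol exporter and like Mylip a target of LXR, rose by 0.30 there (adjusted p = 0.0179); it was named after its values were seen and was the one gene of a list of 12 LXR genes to pass.

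In liver Mylip did not pass in any comparison of diets. The HCD+Gl-2 arrays stood at 8.43, 8.21 and 8.63 and the HCD arrays at 8.41, 8.14 and 8.26, a difference of 0.15 (95% interval from -0.07 to 0.38) with overlapping arrays. The change with Gl-2 was 0.36 lower in liver than in kidney (standard error 0.16, adjusted p = 0.453), so a difference between these tissues did not pass the test. In brain Mylip lay between 7.67 and 8.02 on all 15 arrays, and its difference with Gl-2 was 0.04.

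**Figure D2:**
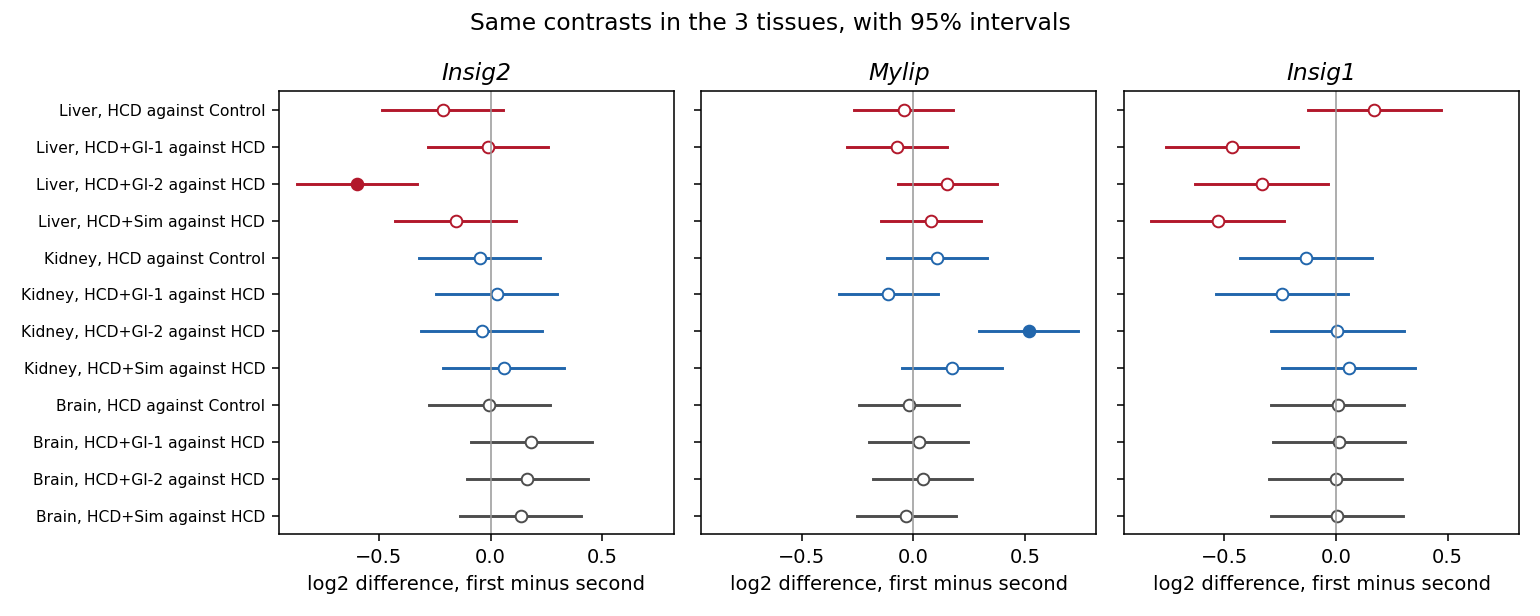
Log2 difference between diets (horizontal axis, first group minus second) for Insig2, Mylip and Insig1 in liver (red), kidney (blue) and brain (grey). Points are differences of means of 3 arrays, lines are 95% intervals from limma, and filled points had an adjusted p of at most 0.05. The filled points are Insig2 in liver, at -0.60, and Mylip in kidney, at 0.52, both for HCD+Gl-2 against HCD.

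Insig1, the relative of Insig2 that the Srebf2 product switches on, had lower liver means in the 3 supplemented groups than in HCD, and none of these differences passed. Its level was 10.71, 10.78 and 10.54 with HCD and 10.50, 10.75 and 10.27 with Control. With HCD+Sim it was 10.15, 10.23 and 10.07, below all HCD and Control arrays. HCD+Sim differed from HCD by -0.53 (standard error 0.15, 95% interval from -0.83 to -0.23, adjusted p = 0.066), in a comparison in which 1.1% of all genes rose or fell and none of the 8 genes did. The adjusted p was 0.00681 with pools A and B only and 0.0393 with the pool letter as a block. It was 0.509 on the liver arrays alone, 0.559 after quantile normalization within liver, 0.259 on the compared groups alone, and between 0.0797 and 0.212 with single arrays left out. The difference stayed between -0.60 and -0.48 in all of these. In the same comparison 9 of 10 pancreas acinar markers rose, with a median of 1.07, as did 7 of 10 muscle markers, with a median of 0.74, and 2 of 8 macrophage markers, with a median of 0.30, and their part in the Insig1 values was not tested.

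The extracts gave wide spreads for Insig1. HCD+Gl-1 stood at 10.28, 10.52 and 9.83 and HCD+Gl-2 at 10.44, 10.77 and 9.83. In both groups pool C lay below the pools of which it was mixed. Over all genes, pool C lay outside the range of A and B for 73.2% with HCD+Gl-1 and 66.6% with HCD+Gl-2. HCD+Gl-1 differed from HCD by -0.47 (95% interval from -0.76 to -0.17, adjusted p = 0.0792), where 2.48% of all genes rose or fell, again none of the 8. HCD+Gl-2 differed from HCD by -0.33 (95% interval from -0.63 to -0.04, adjusted p = 0.318). These values turned on single arrays of the extract groups. Without HCD+Gl-1 array B the difference was -0.62 (adjusted p = 0.00804) and without array C -0.28 (adjusted p = 0.525). Without HCD+Gl-2 array B it was -0.55 (adjusted p = 0.0364) and without array C -0.07 (adjusted p = 0.916). With pools A and B only, the differences were -0.34 for Gl-1 and -0.14 for Gl-2, and neither passed. In kidney Insig1 ranged from 8.64 to 9.17 and in brain from 9.20 to 9.65, with no call.

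Srebf2 and Scap, the transcription factor and its escort, fell together in 1 comparison. Srebf2 stood in liver at 8.27, 8.53 and 8.25 with Control and at 8.21, 8.06 and 7.93 with HCD+Gl-1, with no overlap. It fell by 0.28 (standard error 0.08, adjusted p = 0.0313). Scap stood at 10.33, 10.33 and 10.47 with Control and at 10.18, 10.24 and 10.03 with HCD+Gl-1, again with no overlap. It fell by 0.22 (standard error 0.06, adjusted p = 0.0324). These were 2 of the 8 genes, in a comparison in which 3.58% of all genes rose or fell, and neither reached the fold for DE. Without Control array B the Srebf2 difference was -0.19 (adjusted p = 0.233), and without HCD+Gl-1 array C -0.21 (adjusted p = 0.244). The Scap call was lost without Control array B (-0.25, adjusted p = 0.0591) or C (-0.17, adjusted p = 0.171), and without HCD+Gl-1 array A (-0.24, adjusted p = 0.0666) or C (-0.16, adjusted p = 0.249). With the spread of the liver arrays alone, the adjusted p was 0.257 for Srebf2 and 0.286 for Scap, and with pools A and B only the differences were -0.26 (adjusted p = 0.141) and -0.12 (adjusted p = 0.457). Of the skeletal muscle markers, 5 of 10 fell in this comparison, with a median of -0.46, and of the adipocyte markers 1 of 6, with a median of -0.30, and their part in the result was not tested. The liver means of Srebf2 were ordered Control, HCD, HCD+Gl-2, HCD+Sim and HCD+Gl-1, and only Control and HCD among neighbours did not overlap. Against the same Control arrays, Srebf2 differed by -0.20 with Gl-2 (adjusted p = 0.194) and by -0.21 with simvastatin (adjusted p = 0.212). Scap differed by -0.08 with Gl-2 (adjusted p = 0.633) and by -0.13 with simvastatin (adjusted p = 0.396). Only the differences of Gl-1 from Control passed, and all of these differences share the same Control arrays. Compared directly, HCD+Gl-1 did not differ past the test from HCD+Gl-2 or from HCD+Sim for either gene.

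Cholesterol alone moved none of the 8 genes past the test in liver. In HCD against Control, 1.34% of all genes rose or fell, and the smallest adjusted p among the 8 was 0.25. The differences ran from -0.21 for Insig2 (95% interval from -0.48 to 0.06) to 0.17 for Insig1 (95% interval from -0.13 to 0.47). Srebf2 stood at 8.17, 8.19 and 8.24 with HCD, below all Control arrays, with a difference of -0.15 (95% interval from -0.30 to 0.01). Scap stood at 10.25, 10.15 and 10.23 with HCD, also below all Control arrays, with a difference of -0.16 (95% interval from -0.29 to -0.04). The intervals do not show that levels were alike, and they leave room for differences of up to 0.48 in absolute size.

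Stard4, the sterol carrier, was lowest in liver with simvastatin. The HCD+Sim arrays stood at 8.04, 8.04 and 8.04 (SD 0.002), below the HCD arrays at 8.25, 8.30 and 8.24 and the HCD+Gl-1 arrays at 8.31, 8.26 and 8.33. The Control arrays, at 8.09, 8.33 and 8.18, also lay above them. HCD+Sim differed from HCD by -0.22 (95% interval from -0.38 to -0.06, adjusted p = 0.212). HCD+Gl-1 lay above HCD+Sim by 0.26 (95% interval from 0.10 to 0.42, adjusted p = 0.0569), where 4.09% of all genes rose or fell and none of the 8 did. With arrays left out, it passed without HCD+Gl-1 array B (0.28, adjusted p = 0.0359), and the 5 other arrays gave adjusted p up to 0.198. It also passed after the filter on dim genes (adjusted p = 0.0444), and the adjusted p was 0.195 on the liver arrays alone. In this comparison all 10 pancreas acinar markers, 8 of 10 muscle markers, 1 of 8 macrophage markers and 1 of 6 adipocyte markers were lower with HCD+Gl-1, and their part was not tested.

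Npc1 and Scarb1, which handle lysosomal and HDL cholesterol, had no call between diets in any tissue. Over the 15 liver arrays Npc1 lay between 10.74 and 11.02 and Scarb1 between 10.86 and 11.26. Over the 18 comparisons of diets within a tissue, the 95% intervals of Npc1 stayed between -0.27 and 0.22 and those of Scarb1 between -0.31 and 0.33. The largest difference of Npc1 was 0.14, between HCD+Gl-1 and HCD+Sim in liver, and that of Scarb1 was 0.17, between HCD+Gl-2 and HCD+Gl-1 in liver. Within a tissue these 2 genes, Insig1 and Stard4 had no call.

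**Figure D3:**
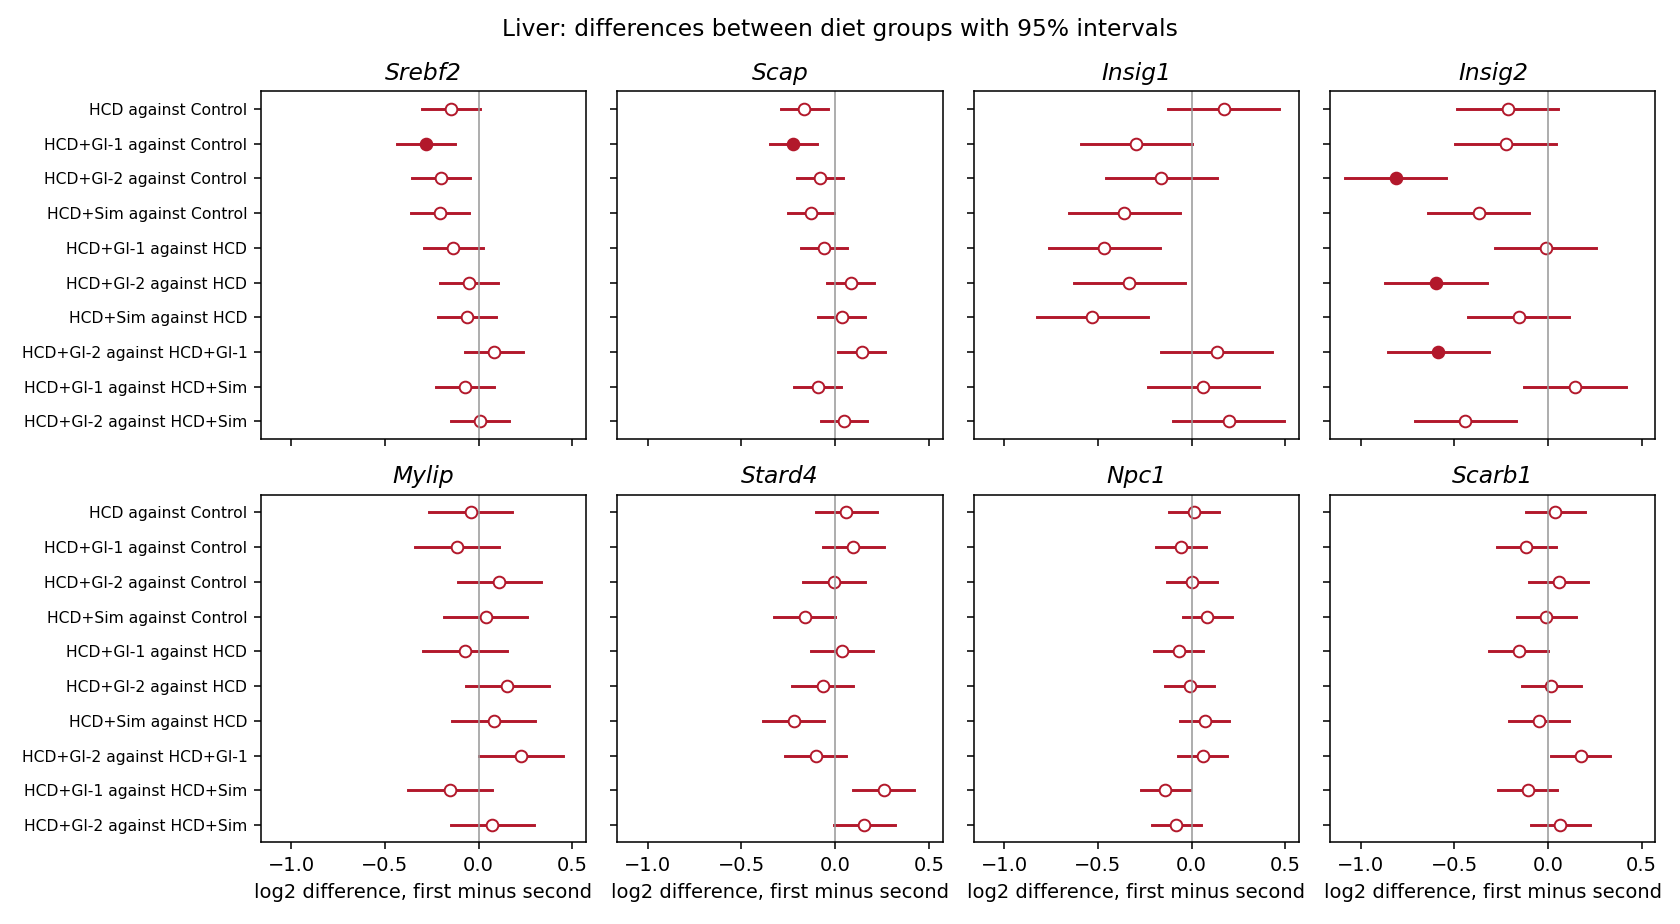
Log2 difference in liver (horizontal axis, first group minus second) for each of the 8 genes in 10 comparisons of diets (vertical axis). Points are differences of means of 3 arrays, lines are 95% intervals from limma, and filled points had an adjusted p of at most 0.05. The filled points are Insig2 in 3 comparisons with HCD+Gl-2, at -0.81, -0.60 and -0.59, and Srebf2 and Scap in HCD+Gl-1 against Control, at -0.28 and -0.22.

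In total, 6 of 144 tests of these genes within a tissue had an adjusted p of at most 0.05, or 4.17%, against 1.43% of the tests of all genes, and 22 had an unadjusted p under 0.05, or 15.3%, against 10.9% of the tests of all genes. These tests share arrays and are not independent. Of the 6, 3 are Insig2 with the same HCD+Gl-2 liver arrays, and Srebf2 and Scap fell in the same comparison. The genes were also chosen with earlier results of these data known, and the shares were not tested against each other. Apart from Mylip with Gl-2, none of the 8 genes passed in kidney, where 0.131% of all genes rose or fell in HCD against Control, 0.267% in HCD+Gl-1 against HCD and 0.222% in HCD+Sim against HCD. None passed in brain, where the corresponding shares were 0.0543% in HCD against Control, 0.0181% with Gl-1, 0.0362% with Gl-2 and 0.0181% with simvastatin, and the smallest adjusted p of the 8 genes was 0.755.

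Tissues differed more widely than diets for most of these genes. On the Control diet, 7 of the 8 genes differed between liver and kidney at the adjusted p and 5 were DE, where 48.4% of all genes passed and 16.8% were DE. Scarb1 stood at 11.06 ± 0.03 in liver and at 7.84 ± 0.07 in kidney, a difference of 3.22 or 9.31-fold. Insig2 was 2.44 higher in liver (10.86 ± 0.09 against 8.42 ± 0.08) and Npc1 2.26 higher (10.87 ± 0.01 against 8.61 ± 0.03). Insig1 was 1.43 higher and Scap 0.61 higher. Mylip went the other way, at 8.31 ± 0.06 in liver and 9.13 ± 0.20 in kidney (difference -0.82), as did Srebf2, at 8.35 ± 0.15 and 8.76 ± 0.08 (difference -0.41). Stard4 differed by 0.16 (95% interval from -2e-04 to 0.33, adjusted p = 0.0933).

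Against brain, all 8 genes differed from liver and 7 were DE, where 70% of all genes passed and 32.7% were DE. Srebf2 was highest in brain, at 9.41 ± 0.13, which was 1.06 above liver. The other 7 were higher in liver, from 0.48 for Mylip to 2.66 for Insig2 and 2.91 for Scarb1. Kidney and brain differed at the adjusted p for 7 genes, 3 of them DE, where 59.1% of all genes passed and 30% were DE. Mylip was 2.45-fold higher in kidney (95% interval of the log2 difference from 1.07 to 1.52), Stard4 was 1.09 higher on the log2 scale, and Npc1 was 1.00 lower. Insig2 differed by 0.22 (adjusted p = 0.163). Tissue order on the Control diet was therefore brain, kidney, liver for Srebf2, kidney, liver, brain for Mylip, and liver first for the other 6, though Stard4 did not separate liver from kidney.

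The other genes of sterol metabolism were read as lists. Values here and in the next paragraph are for liver unless another tissue is named. Of 20 enzymes of sterol synthesis, which the Srebf2 product is known to drive, 12 fell and none rose in HCD+Gl-2 against Control (2.86% of all genes rose or fell), with a median of -0.48 beside -0.01 over all genes. In turn, 12 fell in HCD+Gl-1 against Control (3.58% of all genes) and 11 in HCD+Sim against Control (1.54%), with medians of -0.46 in each. The largest falls with Gl-2 were those of Nsdhl (-1.38), Cyp51 (-1.15), Fdps (-1.12) and Sqle (-1.12). Sqle, which makes the epoxide of squalene, also fell by 0.92 in HCD against Control. Against HCD, 6 of the 20 fell with Gl-1 (2.48% of all genes), 6 with Gl-2 (1.7%) and 5 with simvastatin (1.1%; Fdps, Nsdhl, Dhcr7, Cyp51 and Pmvk), and Fdps and Nsdhl were DE in each. Sqle and Cyp51 were the 2 that fell with cholesterol alone. In the comparisons of Gl-1, Gl-2 and simvastatin with HCD, Srebf2 itself differed by -0.13, -0.05 and -0.06. Pancreas acinar markers rose with simvastatin against both Control and HCD, and their part in the simvastatin counts was not tested. In brain none of the 20 enzymes passed in a comparison of diets. In kidney 1 rose in HCD+Gl-2 against HCD, where 0.996% of all genes rose or fell, and none passed in the other comparisons of diets.

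Of 13 measured genes of SREBP processing and sterol-regulated degradation, 2 rose and none fell in liver in HCD against Control, where 1.34% of all genes rose or fell. One was Srebf1, the relative of Srebf2 that favours fatty acid synthesis, which rose by 1.14, and the other was Rnf145, a ubiquitin ligase, which rose by 0.43 and was named after its values were seen. With Gl-1 against HCD, Srebf1 fell by 0.80 (adjusted p = 0.000891), the 1 gene of this list to pass there, and with Gl-2 and simvastatin against HCD none passed. Of 21 genes of lipoprotein uptake and intracellular sterol transport, 2 rose in HCD against Control, beside 1.34% of all genes (Cd36 by 0.64 and the receptor Vldlr by 0.43), and 3 fell in HCD+Gl-2 against HCD, beside 1.7% of all genes. The latter were the scavenger receptor Cd36 (-0.53), the lysosomal lipase Lipa (-0.37) and the endocytic adaptor Dab2 (-0.29), with Vldlr, Lipa and Dab2 named after their values were seen. With Gl-1 against HCD, beside 2.48% of all genes, Vldlr (-0.34) and the sterol transfer protein Gramd1b (-0.33) fell and Scarb2 rose by 0.28, the last 2 also named after their values were seen. None of the 21 passed with simvastatin against HCD. Of 12 genes of LXR and its targets, 4 rose in HCD against Control, beside 1.34% of all genes, with Cyp7a1, the rate-limiting enzyme of bile acid synthesis, at 1.02 and the sterol exporters Abcg5 and Abcg8 at 0.92 and 0.88, and with the esterifying enzyme Soat2, named after its values were seen, at 0.33. With Gl-1 against HCD, 3 of these fell, Abcg8 by 0.60, Abcg5 by 0.45 and Soat2 by 0.42. With Gl-2 against HCD 1 fell, Soat2 by 0.40, and with simvastatin against HCD 1 rose, Soat1 by 0.34, named after its values were seen, beside 1.7% and 1.1% of all genes. Mylip, also a target of LXR, differed by -0.04 in liver in HCD against Control (95% interval from -0.26 to 0.18).

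The genes whose values followed each regulator most closely over the 15 liver arrays were found by Pearson correlation, as a description. For Insig2 they were Clpx (r = 0.93), Dusp19 (r = 0.93) and Tars (r = 0.93), and for Insig1 they were Samm50 (r = 0.91), Pcyt2 (r = 0.91) and Adra1b (r = 0.90). For Mylip they were Il6ra (r = 0.88), Ece1 (r = 0.87) and Dync1h1 (r = 0.87). For Srebf2 the closest was Inhba (r = 0.91), for Scap Arxes2 (r = 0.94) and for Scarb1 Arrdc4 (r = 0.92). The closest for Stard4 was Mup21 (r = 0.76) and for Npc1 1700034E13Rik (r = 0.85). These are the highest of 22080 correlations each, and the arrays share pools and diets. Among the 8 genes themselves, Srebf2 followed Insig1 (r = 0.60) and Scap (r = 0.58) over the same arrays, Mylip followed Scarb1 (r = 0.62), and Insig1 and Insig2 did not follow each other (r = -0.11).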

How the data were processed

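RNA pools of liver, kidney and brain were measured on 45 Affymetrix arrays. The authors corrected signal for background by RMA, applied quantile normalization (oligo), reduced a batch effect by ComBat, chose 1 probe set per gene by its interquartile range, and deposited log2 values. The batches are not given in the sources used here, and normalization across tissues can shift differences between them. Of the 22080 genes, 13 have names turned into dates. Tissue, diet and pool were taken from the labels. Array medians lay between 6.76 and 6.92, and arrays of a group correlated at 0.9846 to 0.9974. Intensities give no read depth, and the number of arrays limits the precision.

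Group means of the 15 groups were fitted with limma 3.58.1 in R 4.3.3 (prior degrees of freedom 7.34, residual 30), and the code was tested on simulated data. DE meant an adjusted p of at most 0.05 together with an absolute log2 difference above 0.7. The members, lists and tests were chosen with earlier results of these data known. Named genes are the 8 members, up to 4 DE genes per list and liver comparison, and the 3 genes most like each member. Other list genes, among them genes that were not DE and 1 from kidney, were named after their values were seen, as stated with each. Plots were made with matplotlib 3.10.9 (Python 3.11.15). Alternatives were fits on the tissue or on the compared groups alone, on pools A and B alone, and with pool letter as a block, a filter at a highest group mean of 6, quantile normalization within the tissue, trend and robust moderation, no fold threshold, and each array left out.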

Additional observations from a re-analysis of the deposited data

Results flagged for a closer look

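The change of Insig2 with Gl-2 differed between liver and brain. HCD+Gl-2 against HCD was -0.60 in liver and 0.16 in brain, a difference of -0.76 (standard error 0.19, adjusted p = 0.0472 by limma over 22080 genes), and it was the only one of the tests of tissue differences for the 8 genes, 8 per gene, to pass. Every HCD+Gl-2 liver array lay below every HCD liver array, and every HCD+Gl-2 brain array lay above every HCD brain array. The brain change itself did not pass (adjusted p = 0.906).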

How the results depend on the processing

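The fall of Insig2 in liver with Gl-2 against Control passed in every fit tried (-0.86 to -0.75 with arrays left out), and no result reversed. Its adjusted p by limma was 0.0443 on the 15 liver arrays and 0.0344 after quantile normalization within liver. The other calls of diets within a tissue, and that of liver minus brain, missed the threshold in some fits. Their differences were -0.60 (Insig2, Gl-2 against HCD), -0.59 (Insig2, Gl-2 against Gl-1) and -0.76 (Insig2, liver minus brain). They were 0.52 for Mylip in kidney, and -0.28 for Srebf2 and -0.22 for Scap with Gl-1 against Control. Fits on the compared groups or on the 15 liver arrays cannot change these differences, since group means were fitted, and change only the spread and the p-values. On the compared groups alone, the adjusted p by limma was 0.174, 0.536 and 0.0718 for the Insig2 differences in that order. On the 15 liver arrays it was 0.256 for Insig2 in Gl-2 against HCD and 0.246 in Gl-2 against Gl-1. After quantile normalization within liver, the differences were -0.58, -0.55, -0.29 and -0.24 for Insig2, Insig2, Srebf2 and Scap. The 2 Insig2 calls were lost there, at an adjusted p by limma of 0.213 and 0.215. With pools A and B alone they were -0.55 and -0.39 for Insig2, -0.67 for Insig2 in liver minus brain, -0.26 for Srebf2 and -0.12 for Scap. The cause of the shifts after normalization and with pools A and B alone was not tested. With arrays left out, ranges were -0.72 to -0.51 and -0.87 to -0.34 for Insig2, -0.88 to -0.67 for liver minus brain, 0.44 to 0.61 for Mylip, -0.35 to -0.19 for Srebf2 and -0.27 to -0.16 for Scap. Without the fold threshold, counts of DE members went to 7 from 3 between kidney and brain (3 to 4 with arrays left out), to 7 from 5 between liver and kidney, to 8 from 7 between liver and brain, to 2 from 0 in liver HCD+Gl-1 against Control, and to 1 from 0 for Gl-2 against HCD in kidney and liver and against Gl-1 in liver. The last 2 ranged from 0 to 1 with arrays left out. Within a tissue, deviations of arrays of different diets with the same pool letter had median correlations of 0.07, -0.001 and -0.03 for liver, kidney and brain. They ranged from -0.126 to 0.265 in liver, from -0.29 to 0.199 in kidney and from -0.382 to 0.421 in brain. Arrays of different diets come from different mice, so these values cannot show whether the pools of a diet pair across tissues. Pairing across tissues was not tested. With the letter as a block, Insig1 in HCD+Sim against HCD (-0.53) passed, at an adjusted p of 0.0393, and no other call of the single values or counts changed.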
